A study of Mus musculus with 6 samples.

Results

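The enzymes of fatty acid degradation were compared between libraries labelled KO and WT of mouse aorta, all from animals treated with Ang II (angiotensin II, the vasoconstrictor peptide of the renin system). The genes were the rows of the deposited table whose pathway column held the KEGG term for fatty acid degradation and not the term for glycolysis and gluconeogenesis, which removes the shared alcohol and aldehyde dehydrogenases. This left 39 genes of the 33919 in the table, out of 48 that held the first term. The KO group held 3 libraries and the WT group held 3, and both groups received Ang II, so no untreated state was measured. The series title names endothelial OTUD1, a deubiquitinating enzyme, and SMAD3, and the labels give the allele only as KO and the treatment only as Ang II, with no dose, duration, strain, age or sex. The design text counts 3 mice in each group, but no animal identifiers are given, so a p-value here reflects only how these libraries vary, which may be technical.

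Several facts of the whole series bear on every value. Total counts ran from 65.3 to 71.5 M (megacounts) in the libraries labelled KO and from 62.3 to 70.5 M in those labelled WT. The mitochondrial genome took 50.5% to 53.3% of the counts in the libraries labelled KO and 55.7% to 57.8% in those labelled WT. Abundant nuclear pseudogenes, taken as copies of mitochondrial genes, took a further 14.3% to 14.7% in those labelled KO and 15.4% to 16.0% in those labelled WT. Outside both, 23.0 to 23.4 M counts remained in the libraries labelled KO and 17.3 to 19.4 M in those labelled WT. Otud1 had 1033, 1141 and 1223 counts in the libraries labelled KO, against 593, 699 and 615 in those labelled WT (log2 fold change 0.63, SE 0.12, adjusted p = 0.00388). The gene named in the title was thus higher in the libraries labelled KO. The sources used here do not say which part of Otud1 was deleted, so its counts do not check the labels. Markers of the labelled tissue were low beside those of striated muscle: the 9 smooth muscle markers summed to 58.3 to 63.5 FPKM (the deposited level per gene length and library total) in the libraries labelled KO and 164 to 182 FPKM in those labelled WT. The 12 fast skeletal muscle markers summed to 17161 to 19046 FPKM in the libraries labelled KO and 12873 to 14066 FPKM in those labelled WT. The labels name aorta, and their RNA extraction text mentions adipose.

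Fatty acids are broken down after they are joined to coenzyme A by acyl-CoA synthetases. Long-chain acyl groups then cross into mitochondria on carnitine, which CPT1 attaches at the outer membrane and CPT2 removes inside. Each round of beta-oxidation there has 4 reactions, a dehydrogenation, a hydration, a further dehydrogenation and a thiolytic cleavage, carried out by separate enzymes for long, medium and short chains. Peroxisomes shorten very long chains by a parallel set of enzymes, and cytochromes of the CYP4A family oxidise the far end of the chain. In the vessel wall and in muscle the pathway supplies acetyl-CoA for respiration, and many of its genes are targets of PPAR and estrogen-related receptors.

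The sequences upstream of 5 of these genes are shown because they hold the members with the highest fold changes (Acsl5, Ehhadh and Acaa1b), the near-identical partner of Acaa1b, which did not pass the test (Acaa1a), and the start of Hadhb, which lies back to back with Hadha. Each is the 250 bases before the transcription start in RefSeq (GRCm38.p6), 5′ to 3′ on the strand of the gene, with capitals for CCAAT and GGGCGG, the CCAAT box and the GC box, on either strand. Their positions are chr19:55253119-55253368, plus strand for Acsl5, chr5:30155003-30155252, plus strand for Hadhb, chr16:21787835-21788084, minus strand for Ehhadh, chr9:119341044-119341293, plus strand for Acaa1a and chr9:119157094-119157343, minus strand for Acaa1b. They are upstream by the RefSeq starts only. By the deposited gene positions, those of Acsl5 and Acaa1a lie within the genes, which start at 55251938 and 119339676. That of Hadhb ends just inside the gene, which starts at 30155248.
Acsl5: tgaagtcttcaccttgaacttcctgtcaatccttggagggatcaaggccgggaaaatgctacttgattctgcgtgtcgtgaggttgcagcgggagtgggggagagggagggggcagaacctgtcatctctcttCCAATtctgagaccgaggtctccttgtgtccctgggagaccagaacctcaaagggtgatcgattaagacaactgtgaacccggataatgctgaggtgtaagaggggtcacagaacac
Ehhadh: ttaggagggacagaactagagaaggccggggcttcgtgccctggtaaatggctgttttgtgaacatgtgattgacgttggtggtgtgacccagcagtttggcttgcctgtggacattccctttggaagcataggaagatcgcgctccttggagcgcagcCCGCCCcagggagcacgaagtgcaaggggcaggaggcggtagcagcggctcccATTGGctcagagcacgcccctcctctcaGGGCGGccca
Acaa1b: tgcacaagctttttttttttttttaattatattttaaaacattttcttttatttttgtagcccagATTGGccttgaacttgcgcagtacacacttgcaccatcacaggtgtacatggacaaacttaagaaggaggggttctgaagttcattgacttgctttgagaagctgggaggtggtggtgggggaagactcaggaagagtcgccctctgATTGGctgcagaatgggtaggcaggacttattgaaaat
Acaa1a: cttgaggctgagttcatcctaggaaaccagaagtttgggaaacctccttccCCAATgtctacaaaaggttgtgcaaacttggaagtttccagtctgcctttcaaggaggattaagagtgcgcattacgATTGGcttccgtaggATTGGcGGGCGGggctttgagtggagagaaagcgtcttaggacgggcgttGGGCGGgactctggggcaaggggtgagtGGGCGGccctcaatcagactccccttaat
Hadhb: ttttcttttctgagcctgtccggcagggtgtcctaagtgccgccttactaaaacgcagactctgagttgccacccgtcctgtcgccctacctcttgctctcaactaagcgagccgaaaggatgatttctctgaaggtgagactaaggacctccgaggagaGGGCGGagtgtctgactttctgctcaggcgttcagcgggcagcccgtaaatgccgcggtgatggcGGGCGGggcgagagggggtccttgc

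The upstream sequence of Acaa1a held 3 CCAAT and 3 GGGCGG motifs, and that of Acaa1b held 2 CCAAT and 0 GGGCGG. Ehhadh held 1 CCAAT and 2 GGGCGG, Acsl5 held 1 CCAAT and 0 GGGCGG, and Hadhb held 0 CCAAT and 2 GGGCGG. RefSeq windows of 300 bases, the same 250 bases with the 50 that follow, matched 30 of the 39 genes, in 33 windows. GGGCGG occurred in 24 of these 33 windows and in 35.7% of all 32851 windows. CCAAT occurred in 15 of the 33 and in 37.4% of all windows. AGGTCA, the core of nuclear receptor sites, occurred in 7 of the 33 and in 16.3% of all windows. The longer TNAAGGTCA of estrogen-related receptors, which contains AGGTCA, occurred in 1, that of Acsl6, and in 1.28% of all. AGGNCA repeated after a single base, the kind of site bound by PPAR with RXR, occurred in 0 of the 33 and in 0.381% of all. The genes that passed the test as higher had 11 windows, which came from 10 of these 12 genes. Of the 11 windows 7 held GGGCGG, 5 held CCAAT and 1, that of Acadvl, held AGGTCA. These counts describe the letters of the windows only.

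Of the 39 genes, 31 passed the filter on low counts, and 12 of these were higher and 0 lower in the libraries labelled KO (edgeR quasi-likelihood test, Benjamini-Hochberg adjustment over 16620 genes, threshold 0.05). Those higher included Acsl1, Acsl5, Cpt1b, Cpt2, Acadvl, Hadha, Hadhb, Eci1, Eci2, Ehhadh and Acaa1b, and the 12 made up 38.7% of the 31 tested, against 11.5% of all tested genes called higher, 10.5% called lower and 22.0% called in either direction. The fold changes were modest: 3 of the 12, Acsl5, Ehhadh and Acaa1b, exceeded 1.5-fold. Of the 31 genes 21 had a positive fitted change and 10 a negative one, and the median log2 fold change was 0.17, beside -0.020 for all genes tested. CPM here are counts scaled by the library total and by the TMM factor of edgeR, which ran from 0.910 to 1.09. In 13 genes every library labelled KO lay above every library labelled WT in CPM. In 2, Acadm and Acads, every one lay below. In FPKM, which is scaled without the TMM factor, Acadm and Acads overlapped between the groups. These 2 were also the genes with a negative change at an unadjusted p under 0.05, and DESeq2 called both of them and Cyp4a12a, which the filter had left out, lower. Over all tested genes 19.3% lay above without overlap and 19.4% below. In a bulk sample, more cells of a type and more RNA per cell cannot be told apart.

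The count depended on the scaling and the filter. With a mean of at least 1 CPM required, 12 of 30 genes were higher and 2, Acadm and Acads, were lower, where 14.9% of all genes were higher and 14.5% lower. With deposited FPKM values brought to 1 common distribution by quantile normalization (limma), 7 of 23 were higher and 5 lower, against 18.0% and 16.7% of all genes. The 5 called lower there were Acadl, Acadm, Acads, Hadh and Acaa2. In limma on log2(FPKM + 1) without that step, 14 of 23 were higher, Gcdh and Acadl among them, and 0 lower, where 32.5% of all genes were higher and 8.37% lower. DESeq2 called 13 of 38 genes higher, Gcdh among them, and 3 lower, against 9.20% and 9.32% of all genes.

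**Figure D1:**
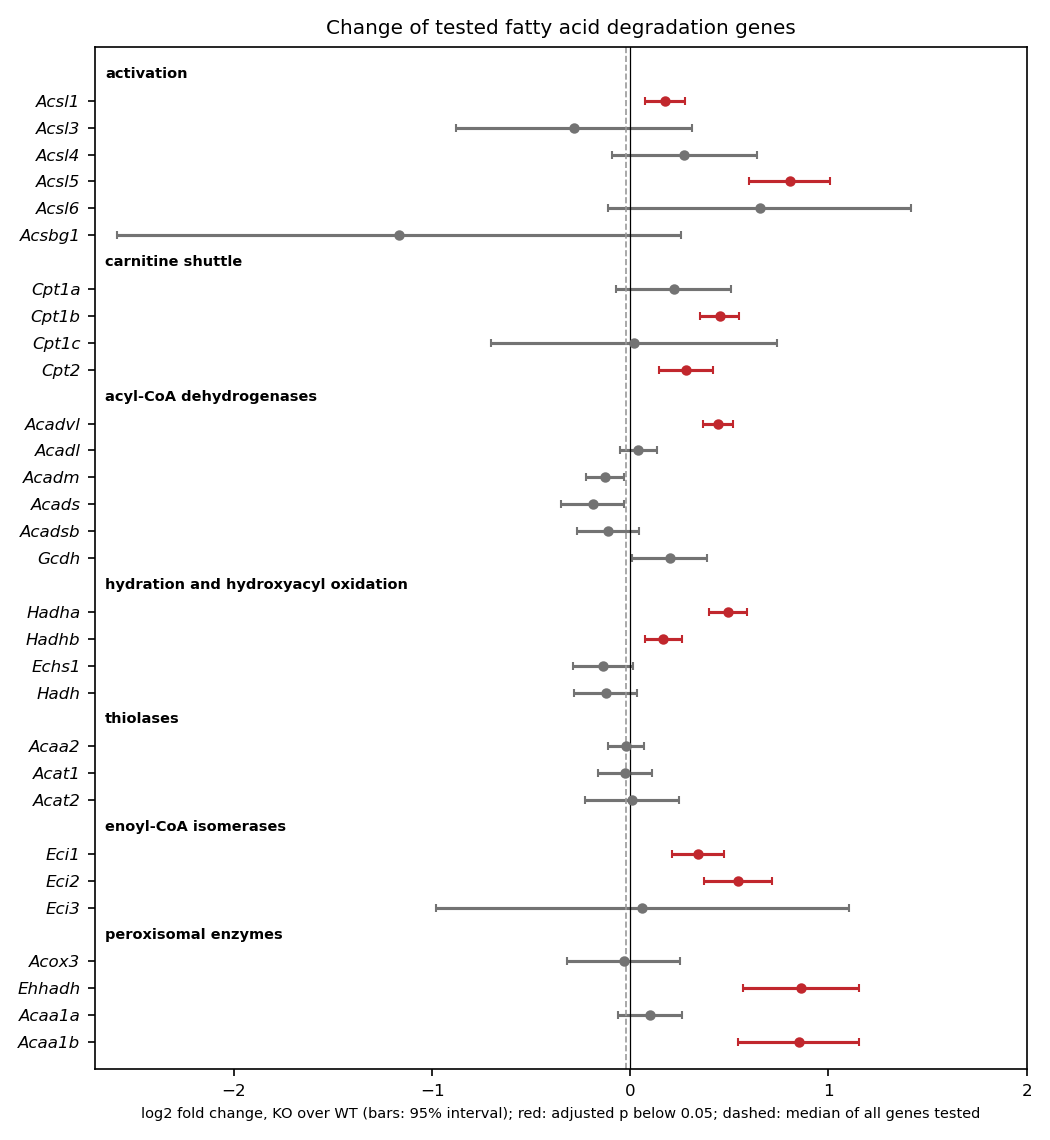
Fitted log2 fold change, KO over WT, of 30 of the 31 tested genes, in the order of the pathway from top to bottom. Points are edgeR estimates with 95% intervals, red points passed an adjusted p of 0.05, and the dashed line is the median of all tested genes at -0.020; the 11 red points all lie right of zero, and the widest intervals belong to weakly expressed genes such as Acsbg1, Eci3 and Acsl6.

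Marker lists of other cell types moved between the groups as well, and their part in these results was not tested. Of the 12 fast skeletal muscle markers 8 were higher and 1 lower, with a median log2 fold change of 0.29, while of the 10 slow muscle markers 2 were higher and 6 lower, with a median of -0.55. The slow muscle list summed to 533 to 590 FPKM in the libraries labelled KO and 753 to 855 FPKM in those labelled WT. Of 11 tested brown adipocyte markers 5 were higher and 3 lower, with a median of 0.20 (1074 to 1209 FPKM in the libraries labelled KO, 994 to 1119 FPKM in those labelled WT). Ucp1, which defines that cell type, averaged 227 ± 20.8 FPKM in the libraries labelled KO and 122 ± 5.82 FPKM in those labelled WT (SD, n = 3 each). Of 11 adipocyte markers 4 were higher and 5 lower, with a median log2 fold change of -0.15. Their sums were 1178 to 1310 FPKM in the libraries labelled KO and 1033 to 1143 FPKM in those labelled WT. FPKM is scaled by library total only. On the log2(FPKM + 1) scale the median change, KO over WT, was 0.15 over 8101 genes with a mean FPKM of at least 1. Without that filter it was 0.0063 over 28426 genes. Hepatocyte markers were lower in 10 of 12 tested and higher in 1 (49.1 to 50.3 FPKM labelled KO, 85.5 to 94.6 FPKM labelled WT), smooth muscle markers lower in 7 of 9 and higher in 1, fibroblast markers lower in 8 of 8 (39.7 to 40.3 FPKM labelled KO, 101 to 115 FPKM labelled WT) and macrophage markers lower in 5 of 7 and higher in 0 (45.6 to 56.1 FPKM labelled KO, 68.7 to 81.8 FPKM labelled WT). Of 9 endothelial markers 2 were higher and 3 lower, with sums of 105 to 114 FPKM in the libraries labelled KO and 107 to 115 FPKM in those labelled WT. Cardiac markers summed to 2.04 to 3.46 FPKM in the libraries labelled KO and 3.78 to 4.05 FPKM in those labelled WT, with 0 of 5 tested higher and 2 lower. Kidney tubule markers (0 of 2 tested called) summed to 0.135 to 0.314 FPKM in the libraries labelled KO and 0.0104 to 0.306 FPKM in those labelled WT, and enterocyte markers (2 of 3 tested lower, 0 higher) to 0.0508 to 0.140 FPKM in the libraries labelled KO and 0.575 to 1.01 FPKM in those labelled WT. Among the defining markers, Slc34a1 and Slc5a2 of kidney were at 0 counts in all 6 libraries, and Myocd of smooth muscle was at 0 in the 3 libraries labelled KO.

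Of the 6 tested acyl-CoA synthetases, 2 were higher, Acsl5 and Acsl1. Acsl1 had the highest level per length of the group, 13.3 ± 0.391 FPKM in the libraries labelled KO and 10.6 ± 0.212 FPKM in those labelled WT (SD, n = 3 each). ACSL1 is the main long-chain acyl-CoA synthetase of heart, muscle and fat, and ACSL5 is a synthetase of the mitochondrial and reticular membranes that is abundant in intestine and brown fat. Acsl5 (chr19:55251938-55295678, plus strand, GRCm38) had 43.5, 35.2 and 39.4 CPM among libraries labelled KO, against 23.8, 22.2 and 21.6 CPM among those labelled WT. Every library labelled KO lay above every library labelled WT, and the gene was 1.75-fold higher (log2 fold change 0.81, SE 0.092, adjusted p = 0.000115). Acsl1 (chr8:46471037-46536051, plus strand) had 145, 144 and 150.4 CPM among libraries labelled KO, against 129, 134 and 126 CPM among those labelled WT. The groups did not overlap, and the rise was 1.13-fold (log2 fold change 0.17, SE 0.045, adjusted p = 0.0185). This call ended when WT replicate 1 (adjusted p = 0.0689), WT replicate 3 (0.0530), KO replicate 2 (0.0506) or KO replicate 3 (0.0749) was left out. It also ended under quantile normalization of FPKM (log2 fold change 0.074, adjusted p = 0.302).

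The other synthetases were far weaker and did not pass the test. Acsl4, which prefers arachidonic acid, had a log2 fold change of 0.27 (95% interval -0.090 to 0.64, adjusted p = 0.286). That of Acsl3, a synthetase of the endoplasmic reticulum and lipid droplets, was -0.28 (95% interval -0.88 to 0.31, adjusted p = 0.522), and that of Acsl6, known from brain, was 0.65 (95% interval -0.11 to 1.42, adjusted p = 0.222). Acsbg1, a bubblegum-type synthetase also known from brain, gave -1.17 (95% interval -2.59 to 0.26, adjusted p = 0.242), with 22, 28 and 28 counts in the libraries labelled KO and 92, 19 and 46 in those labelled WT. The value of Acsl3 varied with single libraries, with -0.51 without KO replicate 1 and -0.067 without KO replicate 2, and that of Acsbg1 was -0.55 without WT replicate 1. Levels of these 4 genes were at most 1.14 FPKM in the mean of either group. Acsbg2 and Acsbg3, the other bubblegum-type synthetases, had at most 7 counts in any library and were not tested.

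Of the 4 carnitine palmitoyltransferase genes, 2 were higher, the muscle-type Cpt1b and the common inner form Cpt2. CPT1B is the muscle-type carnitine palmitoyltransferase, the step at which malonyl-CoA limits entry of long chains, and CPT2 releases the acyl group on the matrix side. Cpt1b (chr15:89416405-89425863, minus strand) had 175, 167 and 169 CPM among libraries labelled KO, against 124, 122 and 128 CPM among those labelled WT. The groups were well apart, and the gene was 1.37-fold higher (log2 fold change 0.45, SE 0.044, adjusted p = 3.59e-05). Cpt2 (chr4:107903981-107923610, minus strand) had 66.1, 69.1 and 70.4 CPM among libraries labelled KO, against 59.4, 53.6 and 56.2 CPM among those labelled WT. It was 1.21-fold higher without overlap (log2 fold change 0.28, SE 0.061, adjusted p = 0.00722), a call that ended under quantile normalization (log2 fold change 0.13, adjusted p = 0.107).

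Cpt1a, the liver-type form, did not pass the test, with 8.40, 8.13 and 8.84 CPM among libraries labelled KO, against 6.76, 6.80 and 8.23 CPM among those labelled WT, a log2 fold change of 0.22 (95% interval -0.072 to 0.51, adjusted p = 0.285). Cpt1c, a brain-type form without much transferase activity, gave 0.017 (95% interval -0.70 to 0.74, adjusted p = 0.98). On the per-length scale Cpt1a made up 2.06%, 2.09% and 2.25% of the FPKM of Cpt1a and Cpt1b together in the libraries labelled KO, against 2.34%, 2.40% and 2.74% in those labelled WT. The means were 2.13% ± 0.10 in the libraries labelled KO and 2.49% ± 0.220 in those labelled WT (SD, n = 3 each), and the exact two-sided permutation test gave p = 0.1, the smallest that 20 splits allow. A same-strand read-through gene, Gm44502, shares 2744 exon bases with Cpt1b, and it had 943, 172 and 286 counts in the libraries labelled KO and 80, 87 and 147 in those labelled WT. The assignment of reads in the shared bases (not given in the sources used here) therefore bears on both genes, and Gm44502 had fewer counts than Cpt1b in every library.

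**Figure D2:**
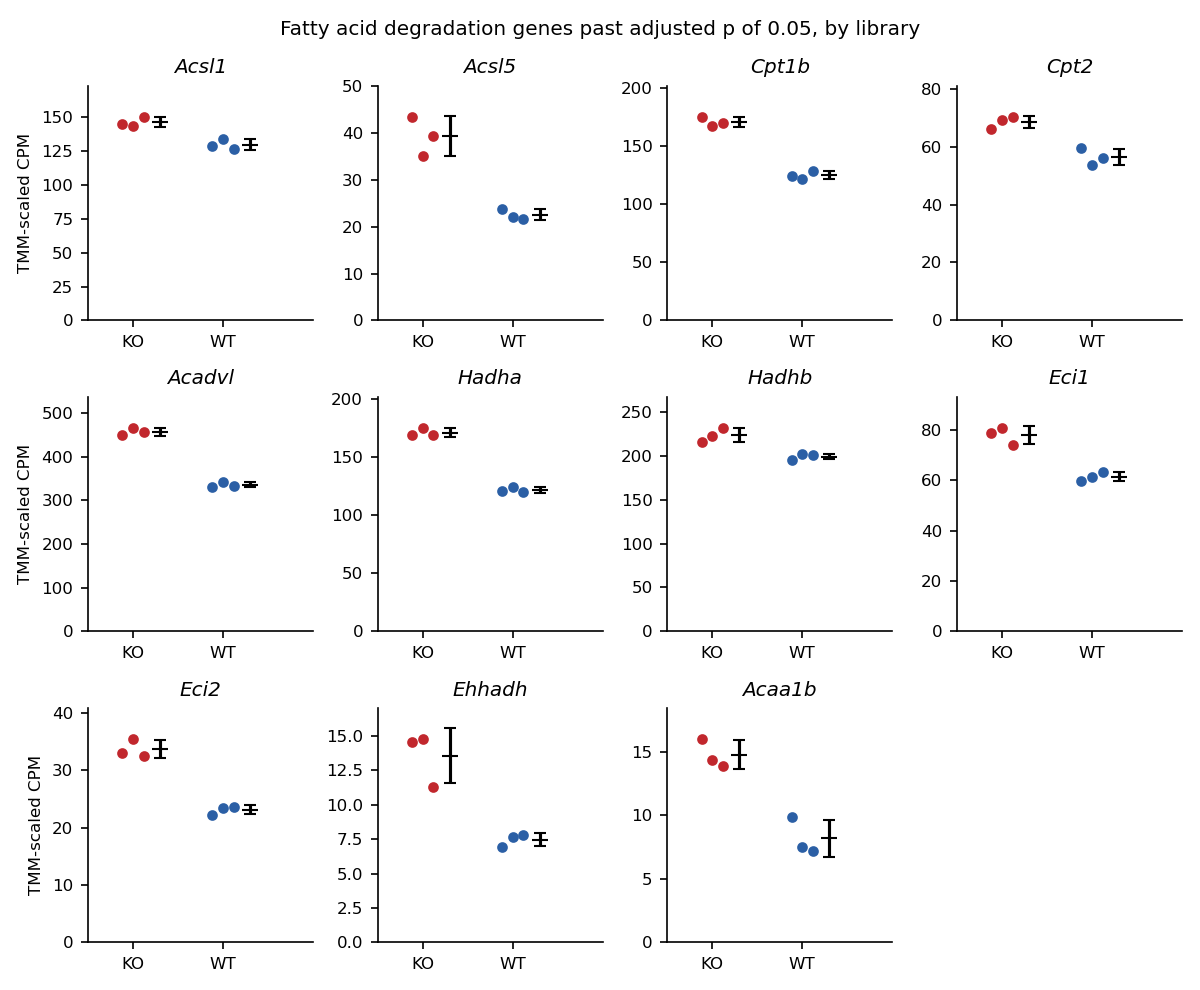
Scaled counts (CPM, vertical axes from 0) of 11 of the 12 genes that passed the test, by library, with KO at the left and WT at the right of each panel. Dots are single libraries and the black marks give the mean and SD of 3; in every panel the 3 dots labelled KO lie above the 3 labelled WT, by a narrow margin in Acsl1 and Hadhb and by a wide margin in Acadvl, Cpt1b and Hadha.

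Among the acyl-CoA dehydrogenases, which open each round, only the very long-chain enzyme passed the test as higher. Acadvl (chr11:70010183-70015411, minus strand) had 449, 466 and 455 CPM among libraries labelled KO, against 331, 343 and 333 CPM among those labelled WT. It was 1.36-fold higher with groups far apart (log2 fold change 0.44, SE 0.035, adjusted p = 6.66e-06), the smallest adjusted p of the 31 tested genes. Its exons share 1151 bases with Dvl2 on the opposite strand, and reads of the 2 genes cannot be told apart where counting ignored strand, a setting not given in the sources used here. Among the other genes called higher, shorter stretches of exon are likewise shared with genes on the opposite strand in Acsl1 (1039 bases, Gm45244), Acsl5 (404, Zdhhc6), Acaa1b (224, Dlec1), Eci2 (189, Gm16984) and Hadha (75, Garem2).

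Acadl, the long-chain dehydrogenase, had 172, 179 and 176 CPM among libraries labelled KO, against 165, 172 and 175 CPM among those labelled WT. These values overlapped, and the log2 fold change was 0.041 (95% interval -0.054 to 0.14, adjusted p = 0.563). Acadl passed the test as higher in limma on log2(FPKM + 1), by 0.19 on the log2 scale, and as lower under quantile normalization (-0.16, adjusted p = 0.0224).

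The medium-chain and short-chain dehydrogenases lay on the other side of zero. Acadm, the medium-chain enzyme whose loss causes the commonest inherited defect of this pathway in people, had 142, 146 and 149 CPM among libraries labelled KO, against 157, 158 and 163 CPM among those labelled WT. All 3 libraries labelled KO lay below all 3 labelled WT, and the log2 fold change was -0.13 (95% interval -0.22 to -0.033, adjusted p = 0.0568). Acads, the short-chain enzyme, had 44.3, 45.4 and 41.4 CPM among libraries labelled KO, against 47.4, 48.6 and 53.5 CPM among those labelled WT, again without overlap, and gave -0.19 (95% interval -0.35 to -0.032, adjusted p = 0.0869). Neither passed the main test. Both passed it as lower in DESeq2 (adjusted p = 0.00933 for Acadm and 0.0166 for Acads), with a mean of at least 1 CPM (0.0151 and 0.0362), with counts divided by 4 (0.0244 and 0.0449) and under quantile normalization of FPKM (0.00212 and 0.00578). Acadm also did so with mitochondrial genes and their nuclear copies removed (0.0322). In limma on log2(FPKM + 1) without quantile normalization Acadm turned to 0.021 (adjusted p = 0.826), and Acads gave -0.036 (0.784).

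Acadsb, which acts on short branched chains from isoleucine, gave -0.11 (95% interval -0.27 to 0.043, adjusted p = 0.306). Gcdh, which oxidises glutaryl-CoA from lysine and tryptophan, gave 0.20 (95% interval 0.011 to 0.39, adjusted p = 0.129). Gcdh had 34.1, 28.8 and 33.7 CPM among libraries labelled KO, against 28.0, 27.8 and 28.5 CPM among those labelled WT, so that the groups did not overlap by a small margin, and it passed the test as higher in DESeq2 (adjusted p = 0.0360).

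The mitochondrial trifunctional protein carries out the later reactions on long chains. Its alpha subunit HADHA holds the hydratase and the hydroxyacyl-CoA dehydrogenase, and its beta subunit HADHB holds the thiolase. Hadha (chr5:30118304-30155162, minus strand) had 169, 175 and 169 CPM among libraries labelled KO, against 121, 124 and 119.7 CPM among those labelled WT. The groups were far apart and the gene was 1.41-fold higher (log2 fold change 0.49, SE 0.043, adjusted p = 1.51e-05). Hadhb (chr5:30155248-30184593, plus strand) had 216, 222 and 232 CPM among libraries labelled KO, against 195, 201 and 200.3 CPM among those labelled WT. It was 1.12-fold higher without overlap (log2 fold change 0.17, SE 0.042, adjusted p = 0.016).

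The call on Hadhb ended when WT replicate 1 (adjusted p = 0.0765), KO replicate 2 (0.0562) or KO replicate 3 (0.0662) was left out, and its direction turned under quantile normalization of FPKM (log2 fold change -0.047). The subunits are encoded back to back, with 85 bases between the 2 genes in the table and 272 between their RefSeq starts. By the positions in the table, the upstream sequence of Hadhb shown above lies in part in Hadha. By the RefSeq starts, all of it lies between the 2 genes. The number of Hadha counts per Hadhb count was 0.783, 0.788 and 0.728 in the libraries labelled KO, against 0.617, 0.617 and 0.598 in those labelled WT.

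The enzymes that carry out the same reactions on shorter chains did not pass the test. Echs1, the short-chain enoyl-CoA hydratase, had 66.9, 68.0 and 61.8 CPM among libraries labelled KO, against 67.6, 77.9 and 71.2 CPM among those labelled WT, a log2 fold change of -0.14 (95% interval -0.29 to 0.011, adjusted p = 0.185). Hadh, the dehydrogenase of medium-chain and short-chain hydroxyacyl-CoA, had 79.6, 66.9 and 69.3 CPM among libraries labelled KO, against 81.3, 74.6 and 79.3 CPM among those labelled WT, a change of -0.12 (95% interval -0.28 to 0.035, adjusted p = 0.266). Both genes overlapped between the groups.

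No thiolase of the 3 annotated outside the trifunctional protein and the peroxisome passed the test. Acaa2 (chr18:74779197-74806208, plus strand), the mitochondrial 3-ketoacyl-CoA thiolase of medium and short chains, had 294, 277 and 271 CPM among libraries labelled KO, against 289, 287 and 279 CPM among those labelled WT. The groups overlapped, with a log2 fold change of -0.021 (95% interval -0.11 to 0.070, adjusted p = 0.777). For Acat1, which cleaves acetoacetyl-CoA in mitochondria and also serves ketone body use, it was -0.026 (95% interval -0.16 to 0.11, adjusted p = 0.821). For Acat2, the cytosolic enzyme that feeds sterol synthesis, it was 0.0075 (95% interval -0.23 to 0.24, adjusted p = 0.975). The intervals of Acaa2, Acat1 and Acat2 do not reach the 1.36-fold rise of Acadvl, while under quantile normalization of FPKM Acaa2 passed the test as lower (log2 fold change -0.13, adjusted p = 0.0116).

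The enoyl-CoA isomerases move the bond of unsaturated fatty acids into the position the hydratase can use. Eci1 (chr17:24426641-24439348, plus strand), the mitochondrial form, had 78.7, 80.9 and 73.8 CPM among libraries labelled KO, against 59.8, 61.1 and 63.4 CPM among those labelled WT. It was 1.27-fold higher without overlap (log2 fold change 0.34, SE 0.058, adjusted p = 0.0017), a call that ended under quantile normalization (log2 fold change 0.12, adjusted p = 0.0930). Eci2 (chr13:34977748-35027096, minus strand), found in peroxisomes and mitochondria, had 33.0, 35.5 and 32.5 CPM among libraries labelled KO, against 22.2, 23.5 and 23.6 CPM among those labelled WT. Its groups were well apart and it was 1.46-fold higher (log2 fold change 0.54, SE 0.077, adjusted p = 0.000521). Eci3, a related gene whose coding sequence is 78.2% identical to that of Eci2, had 41 to 104 counts in the libraries labelled KO and 53 to 93 in those labelled WT, a log2 fold change of 0.061 (95% interval -0.98 to 1.10, adjusted p = 0.952).

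Of the peroxisomal enzymes, Ehhadh and Acaa1b were higher, and Acaa1a and Acox3 did not pass the test. EHHADH is the bifunctional hydratase and dehydrogenase, and ACAA1 is the thiolase, present in mice as the genes Acaa1a and Acaa1b. Ehhadh (chr16:21761287-21787807, minus strand) had 14.6, 14.8 and 11.3 CPM among libraries labelled KO, against 6.96, 7.64 and 7.83 CPM among those labelled WT. KO replicate 3 was the lowest of its group and still above every library labelled WT, and the gene was 1.82-fold higher (log2 fold change 0.86, SE 0.13, adjusted p = 0.000856). In the main fit the fold of Ehhadh and that of Acaa1b were the highest of the 12, and which was higher varied with the setting. Without KO replicate 2 Acsl5 was the highest (log2 fold change 0.88, against 0.87 for Acaa1b and 0.79 for Ehhadh). Acsl5 also exceeded Ehhadh without WT replicate 1 (0.85 against 0.81) and under quantile normalization of FPKM (0.6135 against 0.6095).

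Acaa1b (chr9:119148023-119157093, minus strand) had 16.0, 14.4 and 13.9 CPM among libraries labelled KO, against 9.86, 7.54 and 7.18 CPM among those labelled WT. It was 1.80-fold higher without overlap (log2 fold change 0.85, SE 0.14, adjusted p = 0.00121). Acaa1a (chr9:119339676-119350298, plus strand) had 52.8, 50.9 and 54.9 CPM among libraries labelled KO, against 51.6, 44.8 and 51.6 CPM among those labelled WT, which overlapped, and gave 0.10 (95% interval -0.061 to 0.26, adjusted p = 0.388). The coding sequences of the pair are 96.5% identical, so the division of reads between them is uncertain. Their summed CPM was 68.9, 65.3 and 68.8 in the libraries labelled KO, against 61.5, 52.3 and 58.8 in those labelled WT. The sums did not overlap, and the means were 67.7 ± 2.05 CPM in the libraries labelled KO and 57.5 ± 4.72 CPM in those labelled WT (SD, n = 3 each). Acox3, an oxidase of branched chains, gave -0.034 (95% interval -0.32 to 0.25, adjusted p = 0.893).

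The 6 omega-hydroxylase genes of the Cyp4a family, classical PPAR-alpha targets of liver and kidney, were at or near the limit of counting and were not tested. A count of 0 was taken to allow up to 12 deposited counts per library, which is 3 read pairs if each gives 4 counts, a value assumed here. Cyp4a10 had 6, 12 and 4 counts in the libraries labelled KO and 0, 0 and 0 in those labelled WT. Cyp4a14 had 8, 0 and 0 counts in the libraries labelled KO and 18, 46 and 0 in those labelled WT. Cyp4a12a had 0, 0 and 0 counts in the libraries labelled KO and 22, 10 and 0 in those labelled WT, and Cyp4a12b had 0, 0 and 8 counts in the libraries labelled KO and 0, 4 and 0 in those labelled WT. Cyp4a29 reached at most 2 counts, and Cyp4a32 had 0 in all 6 libraries. Cyp4a12a was called lower by DESeq2 (adjusted p = 0.0321) and by edgeR without WT replicate 3 (0.0425), on 22 counts or fewer per library. Coding sequences are 98.5% identical between Cyp4a12a and Cyp4a12b and 97.2% between Cyp4a10 and Cyp4a32, so reads could be divided among them.

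Ratios of counts within a library need no scaling between libraries, and 10 were computed on pairs chosen after the values were seen. In all 10 the libraries labelled KO lay above those labelled WT without overlap. With 3 libraries against 3 each has an exact two-sided permutation p of 0.1, the smallest that 20 splits allow, and 0.1 after adjustment over the 10, so none could pass 0.05. Acadvl counts per Acadl count were 2.61, 2.60 and 2.59 in the libraries labelled KO, against 2.01, 1.99 and 1.91 in those labelled WT. Against Acadm the ratio was 3.17, 3.19 and 3.06 in the libraries labelled KO and 2.12, 2.17 and 2.05 in those labelled WT. Against Acads it was 10.1, 10.3 and 11.0 in the libraries labelled KO and 6.99, 7.05 and 6.23 in those labelled WT. Every library labelled KO thus held more counts of the very long-chain gene for each count of a gene for shorter chains.

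The later reactions showed the same arrangement. Hadha counts per Hadh count were 2.12, 2.62 and 2.43 in the libraries labelled KO, against 1.48, 1.67 and 1.51 in those labelled WT. Hadhb counts per Hadh count were 2.71, 3.32 and 3.35 in the libraries labelled KO and 2.40, 2.70 and 2.52 in those labelled WT, with KO replicate 1 close to the highest of the group labelled WT. Among isoforms, Acsl5 per Acsl1 was 0.301, 0.245 and 0.262 in the libraries labelled KO, against 0.185, 0.166 and 0.171 in those labelled WT. Cpt1b per Cpt1a was 20.9, 20.6 and 19.1 in the libraries labelled KO and 18.3, 17.9 and 15.6 in those labelled WT. Acaa1b per Acaa1a was 0.304, 0.283 and 0.253 in the libraries labelled KO and 0.191, 0.168 and 0.139 in those labelled WT. The ratio of peroxisomal Ehhadh to mitochondrial Hadha was 0.0865, 0.0846 and 0.0669 in the libraries labelled KO and 0.0577, 0.0614 and 0.0654 in those labelled WT, where KO replicate 3 and WT replicate 3 nearly met.

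**Figure D3:**
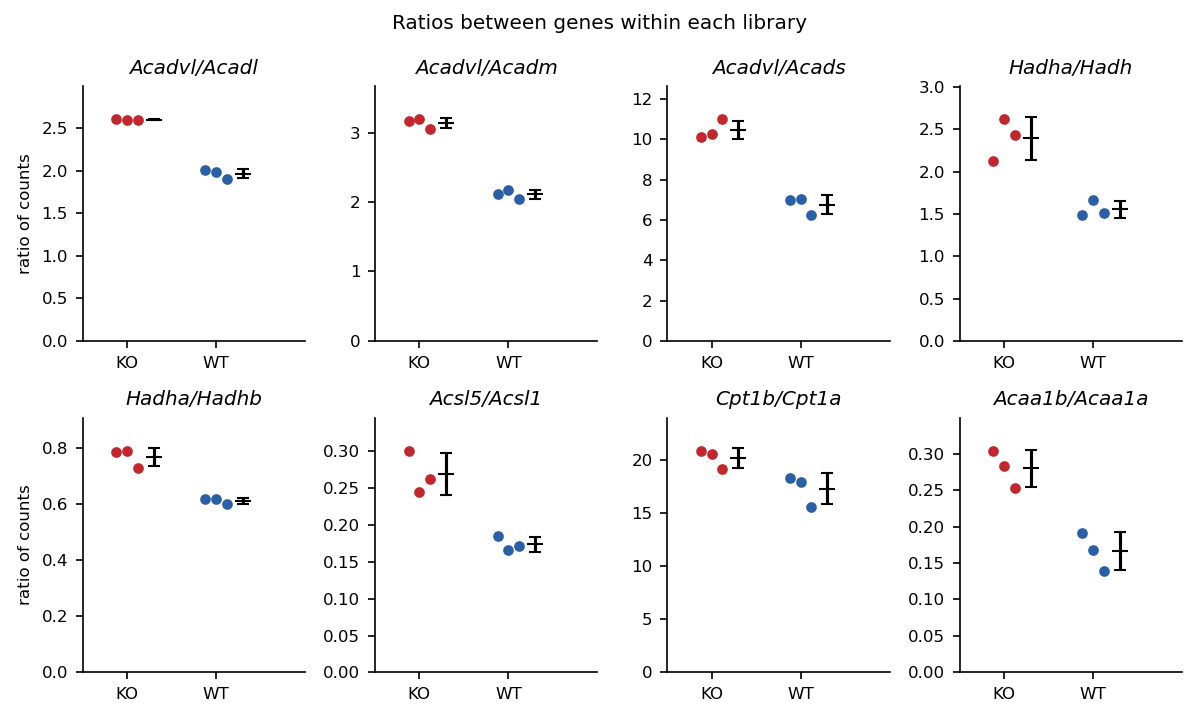
Ratios of counts between pairs of genes within each library (vertical axes from 0, no unit), with KO at the left and WT at the right. Dots are single libraries and the black marks give the mean and SD of 3; Acadvl per Acadl lies between 2.59 and 2.61 in the libraries labelled KO and between 1.91 and 2.01 in those labelled WT, and no panel shows overlap.

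Levels between genes were compared per length. By deposited FPKM the most abundant of the 39 genes was Acaa2, with 177 ± 13.8 FPKM in the libraries labelled KO and 161 ± 5.51 FPKM in those labelled WT (SD, n = 3 each), followed by Acadvl with 162 ± 4.59 FPKM in the libraries labelled KO and 107 ± 4.05 FPKM in those labelled WT and Acadl with 83.6 ± 2.16 FPKM in the libraries labelled KO and 73.2 ± 4.77 FPKM in those labelled WT. Cpt1b stood at 48.3 ± 2.84 FPKM in the libraries labelled KO and 31.8 ± 2.38 FPKM in those labelled WT, which ranked it 4th in the libraries labelled KO and 5th, after Acadm, in those labelled WT. Over the 8101 genes with a mean FPKM of at least 1, the median change on the log2(FPKM + 1) scale was 0.15, KO over WT. Among such genes, rises in FPKM thus overstate those in scaled CPM. Without that filter the median was 0.0063. The 4 genes of the carnitine shuttle summed to 77.0 ± 2.93 FPKM in the libraries labelled KO and 53.3 ± 3.81 FPKM in those labelled WT, and the 6 dehydrogenases to 316 ± 8.89 FPKM in the libraries labelled KO and 248 ± 14.0 FPKM in those labelled WT.

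The order of levels depended on the gene length used. The deposited FPKM divided by the combined exons of all transcripts, retained introns included, which gave Echs1 a length of 8286 bases beside 1557 for its longest coding transcript, and Hadhb 6595 beside 2048. Per kilobase of the longest coding transcript, Hadhb ranked 3rd of the 39 in the libraries labelled KO in place of 7th by FPKM, and Echs1 ranked 9th in place of 18th. Cpt1b ranked 7th there in place of 4th and Cpt2 13th in place of 8th. Acadvl stood above Acaa2 in the libraries labelled KO, at 221 and 194 CPM per kilobase, and below it in those labelled WT, at 148 and 179. Hadhb then stood at 114 ± 1.5 CPM per kilobase, before any scaling, in the libraries labelled KO and 92.8 ± 4.68 in those labelled WT. Echs1 stood at 44.1 ± 3.42 in the libraries labelled KO and 44.3 ± 2.50 in those labelled WT (SD, n = 3 each).

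**Figure D4:**
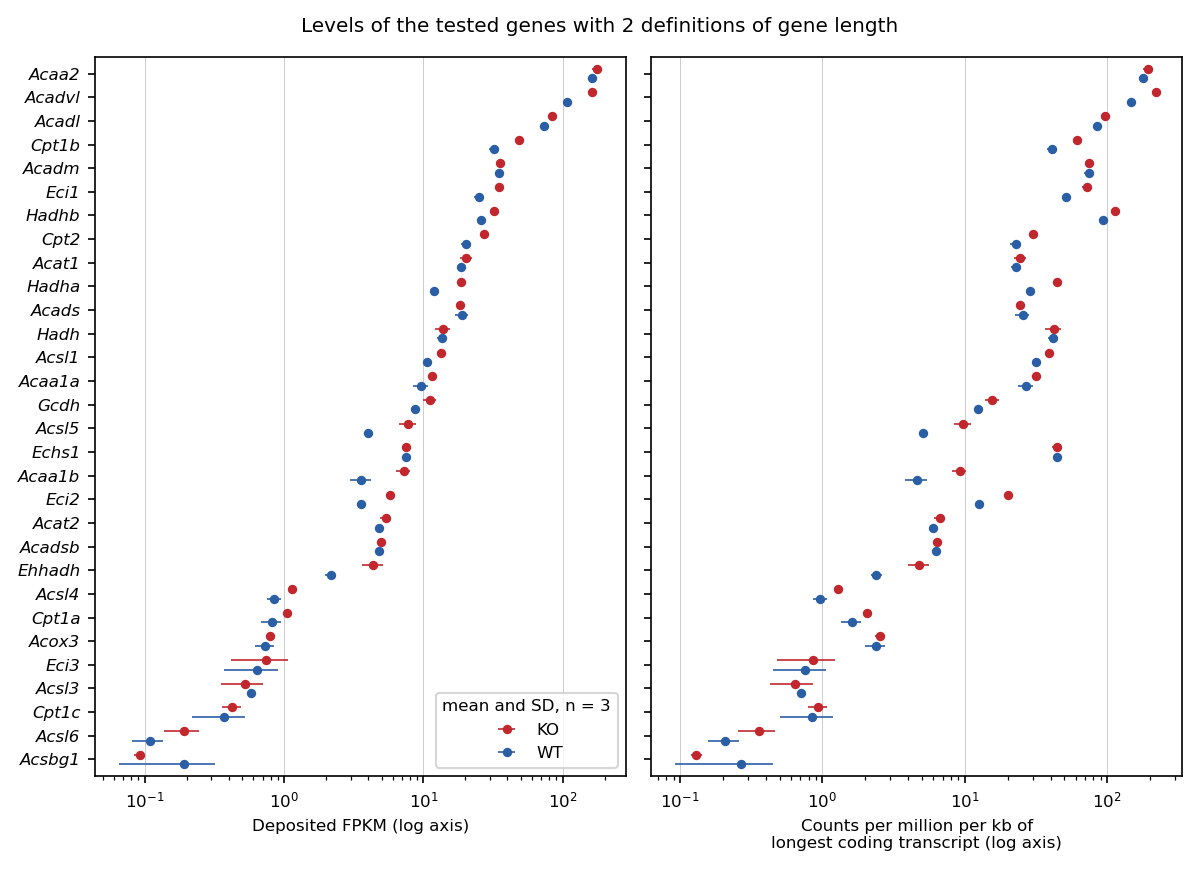
Mean levels of 30 of the 31 tested genes in the libraries labelled KO (red) and WT (blue), as deposited FPKM at the left and as CPM per kilobase of the longest coding transcript at the right, both on log axes, with SD of 3 libraries. Genes are in the order of FPKM; Hadhb and Echs1 move right in the second panel, to 114 and 44.1 in the libraries labelled KO.

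Genes around the pathway were taken from 9 lists. Beside the 11.5% of all genes called higher and the 10.5% called lower, the shuttle outside the 39 genes had 2 of 5 higher and 0 lower, with a median log2 fold change of 0.36. Crat, the carnitine acetyltransferase that buffers acetyl groups, had 227, 219 and 205 CPM among libraries labelled KO, against 168, 165 and 176 CPM among those labelled WT, without overlap (log2 fold change 0.36, SE 0.049, adjusted p = 0.000422). Slc22a5, the plasma membrane carnitine importer OCTN2, was higher as well (13.7 ± 1.28 CPM labelled KO, 10.0 ± 1.13 CPM labelled WT, log2 fold change 0.46, adjusted p = 0.0211). The inner membrane carriers Slc25a20 (0.17, adjusted p = 0.0801) and Slc25a29 (0.65, adjusted p = 0.061) did not pass. The electron transfer flavoproteins and their reductase, which take electrons from every acyl-CoA dehydrogenase, had 0 of 4 called and a median of 0.037. Etfb averaged 424 ± 7.31 CPM in the libraries labelled KO and 396 ± 13.4 CPM in those labelled WT (SD, n = 3 each; log2 fold change 0.10, SE 0.037, adjusted p = 0.0816), and Etfdh, Etfa and Etfrf1 had log2 fold changes of 0.10, -0.073 and -0.026.

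Auxiliary enzymes, a mostly mitochondrial list that also holds the peroxisomal Nudt7, had 6 of 15 higher and 1 lower, with a median of 0.22. Ech1, the dienoyl-CoA isomerase of unsaturated chains, had 265, 266 and 253 CPM among libraries labelled KO, against 214, 204 and 208 CPM among those labelled WT, far apart (log2 fold change 0.33, SE 0.041, adjusted p = 0.000197). Hsd17b10, a hydroxyacyl-CoA dehydrogenase of branched chains and a subunit of mitochondrial RNase P, had 52.8, 58.0 and 50.6 CPM among libraries labelled KO, against 32.6, 35.4 and 34.6 CPM among those labelled WT (log2 fold change 0.65, SE 0.073, adjusted p = 9.79e-05). Nudt7, a peroxisomal hydrolase of coenzyme A, was higher (log2 fold change 0.81, adjusted p = 0.000676), as were Mcee, Acad10 and Mmaa, while Pccb, the beta subunit of propionyl-CoA carboxylase, was lower (-0.32, adjusted p = 0.0032). The peroxisomal list had 2 of 14 higher and 0 lower, near the background, with a median of 0.045. Hsd17b4, the bifunctional enzyme of branched chains and bile acid side chains, had 34.2, 33.2 and 33.1 CPM among libraries labelled KO, against 27.9, 27.8 and 23.1 CPM among those labelled WT (log2 fold change 0.35, SE 0.089, adjusted p = 0.0159), and Abcd3, a peroxisomal transporter of long-chain substrates, was also higher (0.30, adjusted p = 0.0167). Phyh (-0.14, adjusted p = 0.0856) did not pass.

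Of 9 tested acyl-CoA thioesterases, which release free fatty acids from coenzyme A, 2 were higher and 0 lower, with a median of 0.32. Acot11, a thioesterase induced by cold in brown fat, had 30.2, 26.4 and 26.0 CPM among libraries labelled KO, against 10.6, 12.7 and 9.52 CPM among those labelled WT, well apart (log2 fold change 1.33, SE 0.12, adjusted p = 1.97e-05), and Acot13 was higher by 0.29 on the log2 scale (adjusted p = 0.00957). Acot6 (-1.08, adjusted p = 0.063) and Acot1 (0.76, adjusted p = 0.0675) did not pass. Ketone body enzymes had 0 of 6 higher and 2 lower, with a median of -0.046. Oxct1, which activates acetoacetate for use as fuel, had 129, 138 and 138 CPM among libraries labelled KO, against 168, 163 and 174 CPM among those labelled WT, and all libraries labelled KO lay below (log2 fold change -0.31, SE 0.048, adjusted p = 0.000837). Bdh2, at 0.406 ± 0.126 CPM in the libraries labelled KO and 1.40 ± 0.505 CPM in those labelled WT, was lower on few counts (adjusted p = 0.0226). Aacs and Bdh1 gave 0.54 and 0.16 and did not pass (adjusted p = 0.0901 and 0.213).

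Genes that control CPT1 through malonyl-CoA had 4 of 10 higher and 1 lower, with a median of 0.24. Acaca, the acetyl-CoA carboxylase that makes malonyl-CoA for fatty acid synthesis, had 212, 199 and 204 CPM among libraries labelled KO, against 61.2, 67.1 and 60.9 CPM among those labelled WT, 3.25-fold higher (log2 fold change 1.70, SE 0.054, adjusted p = 1.29e-08). Acacb, the form at the mitochondrial outer membrane, had 187, 184 and 186 CPM among libraries labelled KO, against 90.3, 94.9 and 92.1 CPM among those labelled WT, 2.01-fold higher (log2 fold change 1.0, SE 0.043, adjusted p = 7.80e-08). Mlycd, malonyl-CoA decarboxylase, which removes malonyl-CoA, had 53.7, 50.7 and 57.0 CPM among libraries labelled KO, against 33.0, 32.4 and 35.7 CPM among those labelled WT, 1.60-fold higher (log2 fold change 0.67, SE 0.073, adjusted p = 7.34e-05). The genes that make and remove the inhibitor were thus higher together. Prkag2, a regulatory subunit of AMP-activated kinase, was lower (7.63 ± 0.232 CPM labelled KO, 15.0 ± 0.951 CPM labelled WT, log2 fold change -0.98, adjusted p = 7.18e-05), and Prkaa2, a catalytic subunit, was higher (log2 fold change 1.0, adjusted p = 0.000418).

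Transcription factors and coactivators had 6 of 15 higher and 2 lower, with a median of 0.27. Esrra, the estrogen-related receptor that binds many genes of oxidation, had 63.3, 62.0 and 66.6 CPM among libraries labelled KO, against 44.2, 37.8 and 41.2 CPM among those labelled WT (log2 fold change 0.64, SE 0.072, adjusted p = 9.66e-05). Its relatives Esrrb and Esrrg were also higher (1.26 and 0.95 on the log2 scale), as was Lpin1, a phosphatidate phosphatase and coactivator (0.53). Pparg, the PPAR of adipocytes, which is also on the adipocyte marker list, was lower (17.9 ± 1.60 CPM labelled KO, 31.8 ± 1.03 CPM labelled WT, log2 fold change -0.83, adjusted p = 7.22e-05). Ppara, a PPAR of liver and muscle and a well known regulator of these genes, did not pass the test (-0.11, adjusted p = 0.842), nor did Ppargc1a (0.39, adjusted p = 0.105). Among 12 other tested PPAR targets 7 were higher and 0 lower, with a median of 0.33. Slc27a1, the fatty acid transport protein of muscle and fat, had 53.9, 54.7 and 54.6 CPM among libraries labelled KO, against 30.2, 26.1 and 30.5 CPM among those labelled WT, 1.88-fold higher (log2 fold change 0.91, SE 0.076, adjusted p = 1.09e-05). Ucp3, an uncoupling protein of muscle mitochondria, had 29.4, 26.9 and 25.5 CPM among libraries labelled KO, against 15.0, 11.2 and 13.3 CPM among those labelled WT (log2 fold change 1.05, SE 0.12, adjusted p = 9.39e-05). Lpl, which frees fatty acids from lipoproteins, and Angptl4, which inhibits it, were both higher (log2 fold changes 0.43 and 0.74, adjusted p = 4.27e-05 and 6.37e-05).

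**Figure D5:**
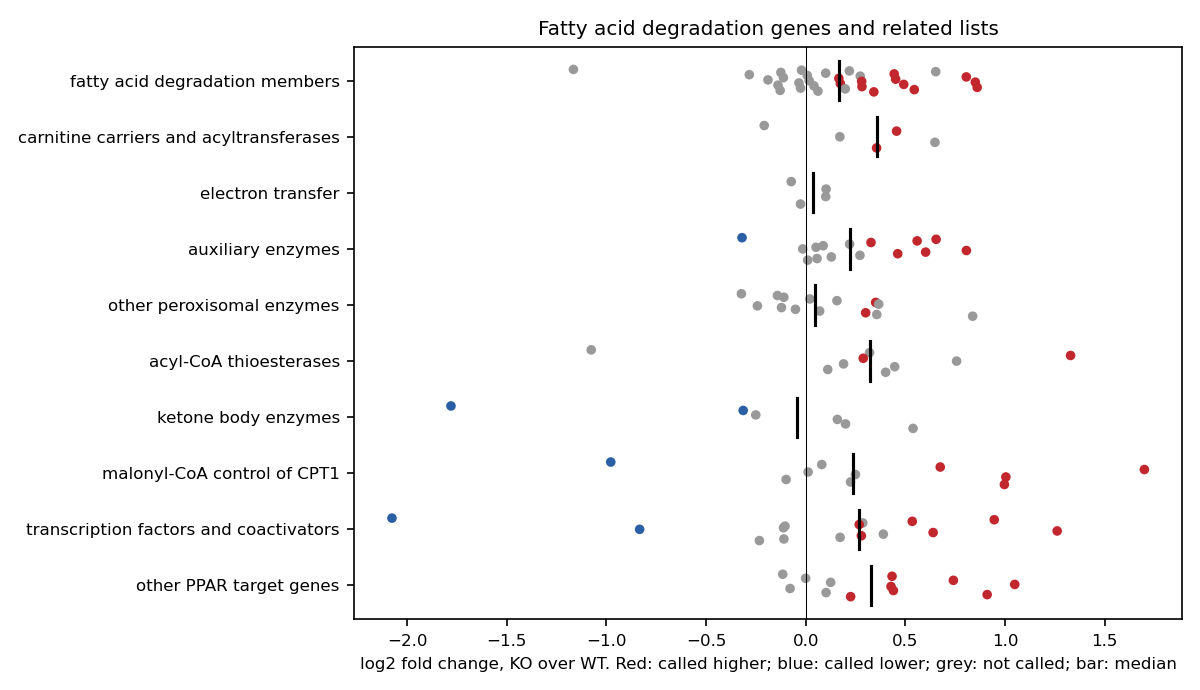
Fitted log2 fold changes, KO over WT, of the 31 tested fatty acid degradation genes (top row) and of the tested genes of 9 related lists, each dot a gene and the black bar the median. Red dots passed the test as higher and blue dots as lower; the medians run from -0.046 for ketone body enzymes to 0.36 for carnitine carriers and acyltransferases, and Acaca at 1.70 lies farthest to the right.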

How the data were processed

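Poly(A) RNA of 6 libraries was sequenced in read pairs, per the labels' protocols. The authors deposited a single table with a whole-number count and an FPKM value per gene and library, per the file headers. Bowtie 0.12.2, HISAT2 2.0 and the build mm8 appear, without roles, in the submitters' processing notes; gene positions in the table matched GENCODE M21 (GRCm38) for 91.2% of 33815 shared genes, so GRCm38 is used. The sources used here give neither the counting program nor the strand setting. Low counts fell on multiples of 4 in 33.0% to 34.9% of values from 1 to 40, against 25% by chance, so a count may stand for less than a read pair; limits for counts of 0 assume 4 counts a pair (3 read pairs, 12 counts) and cover counting error only. 0 other columns were set aside, and 0 rows lacked a gene name.

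The counts went into edgeR 4.0.16 under R 4.3.3, with filterByExpr, TMM scaling, genotype as the only term, two-sided quasi-likelihood F-test, Benjamini-Hochberg adjustment over 16620 genes. CPM are TMM-scaled. Replicate numbers were not treated as pairs in the main fit. On simulated counts for 16039 genes with 200 changed in a comparison of this size, 26% of 1.5-fold and 65% of 2-fold changes were recovered, with 8 false calls. Alternatives were DESeq2 1.42.0, its size factors, other filters, a replicate block, each library left out, counts divided by 4, and mitochondrial genes and their nuclear copies removed. A further alternative was limma 3.58.1 on log2(FPKM + 1) with other pseudocounts (0.1, 0.5), a mean FPKM of at least 1 or no filter, and quantile normalization. Transcript length and the unit of the ratios were tried as alternatives chosen after seeing the data.

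The genes, lists, role groups and ratio pairs were chosen with earlier results of these data known, and the role groups and ratio pairs after their values were seen. Values per library are given for genes past the threshold and for the most abundant gene of each role, and up to 4 genes with the smallest p are named from each list; 1 gene past the threshold and 1 list gene are counted but not reported here. Cpt1a, Acadl, Acadm, Acads, Gcdh, Echs1, Hadh, Acaa1a (values per library), Mcee, Acad10, Mmaa, Prkaa2, Esrrg, Ppara, Ppargc1a and Gm44502 fall outside this rule and were chosen after their values were seen. Sequences are from RefSeq (GRCm38.p6), and figures were drawn with matplotlib 3.10.9.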

Additional observations from a re-analysis of the deposited data

How the results depend on the processing

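Of 524 recalculated changes of single genes, 450 kept their direction and side of the threshold. The calls on Acsl5, Cpt1b, Acadvl, Hadha, Eci2, Ehhadh and Acaa1b held in all 18 settings tried. Genes called lower numbered 0 in the main fit, 3 in DESeq2, 2 with a mean of at least 1 CPM and 2 with counts divided by 4. They numbered 1 with mitochondrial genes and their nuclear copies removed, 5 under quantile normalization, and 0 to 1 with a library left out. Genes called higher numbered 13 in DESeq2, 14 of 23 in limma on log2(FPKM + 1) and with both other pseudocounts, 7 under quantile normalization and 10 to 12 with a library left out. The median change was 0.31 in limma on log2(FPKM + 1), 0.32 with a pseudocount of 0.1, 0.31 with 0.5 and 0.074 under quantile normalization. The median of the 8101 genes with a mean FPKM of at least 1 stood there at 0.15, 0.20, 0.18 and 0.016. All genes called numbered 2621 to 5266 over the settings, against 3658, and the share of calls that were higher was 52.1%, against 79.5% in limma on log2(FPKM + 1). Leaving out a library turned Cpt1c (range -0.25 to 0.38), Acat2 (-0.043 to 0.094), Eci3 (-0.17 to 0.39), Acox3 (-0.14 to 0.044), Acaa2 (-0.055 to 0.0033) and Acat1 (-0.061 to 0.029). With a mean of at least 1 CPM, Cpt1c (-0.0069) and Acat2 (-0.016) turned, with counts divided by 4 Acat2 (-0.0048), and under quantile normalization Acat2 (-0.053), Acadl (-0.16) and Hadhb (-0.047). In limma on log2(FPKM + 1), with or without the filter, Acaa2 (0.13), Acat1 (0.12), Acadm (0.021), Acadsb (0.032), Echs1 (0.011) and Hadh (0.021) turned, and without it Acox3 (0.051). With pseudocounts of 0.1 and 0.5 these were 0.13 and 0.13 (Acaa2), 0.12 and 0.12 (Acat1), 0.022 and 0.022 (Acadm), 0.038 and 0.035 (Acadsb), 0.012 and 0.012 (Echs1), and 0.023 and 0.022 (Hadh). The cause was not tested. With FPKM in place of counts, all 10 ratios kept their direction. This could hardly be otherwise, because FPKM divides the counts of a gene by the same length in every library. Most 1.5-fold changes given to genes above 1 CPM were missed in simulated data. Only 200 genes were changed there, while 3658 were called in the main fit, so this recovery does not carry over directly to the genes above.

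Same-numbered libraries showed little common deviation (correlations 0.049, 0.0076 and 0.033), and the other combinations ran from -0.086 to 0.052. With 3 libraries in each group this cannot exclude that the numbers pair the samples. With a replicate block 3255 genes were called in place of 3658. Of the tested members 12 were then higher and 0 lower, with a median of 0.17.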
